A study of Mus musculus with 8 samples.

Results

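AP-1 is a family of dimeric transcription factors, and the 10 genes described here encode its main subunits and close partners in the mouse: Fos, Fosb, Fosl1, Fosl2, Jun, Junb, Jund, Atf3, Maff and Batf3. They were listed by name, with no threshold on a measured value, although earlier results of these data were known, and are 10 of the 53801 genes in the count table. All 10 had a count in at least 1 library and all 10 could be tested. RNA was sequenced from stromal cells of subcutaneous MO5 melanomas, tumours grown from the B16 mouse melanoma line expressing ovalbumin, in adult ADAM12-GFP mice on a C57Bl/6 background. These mice carry a bacterial artificial chromosome in which Adam12 sequences drive Cre and, through an internal ribosome entry site, GFP. From early tumours, stromal cells with PDPN and PDGFRα on their surface and without CD45 or CD31 were sorted by reporter signal, giving 4 libraries of ADAM12+ (GFP+) cells and 4 of ADAM12- (GFP-) cells. Both groups came from mice with the same transgene and from tissue digested with enzymes, and the labels name no treatment that separates them. GFP marks cells in which the transgene was active, so the groups differ by a reporter and not by an experimental change in any AP-1 gene.

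AP-1 proteins share a basic leucine zipper, in which the zipper joins a pair of subunits and the basic region contacts DNA. FOS proteins pair only with other zipper proteins such as those of the JUN family, whereas JUN proteins can also pair with themselves. Several of these genes are immediate early genes: their promoters respond within minutes to growth factors, cytokines, mechanical load and stress, and in fibroblasts their proteins are known to regulate genes of matrix remodelling, inflammation and proliferation.

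Total counts ran from 883144 to 17535099 in the GFP- libraries and from 8776925 to 31666734 in the GFP+ libraries. GFP- replicate 3 was the shallowest, and its raw counts for Fos and Jun were still above 1000. By the study's convention n counts mice, so the libraries of a group stand for separate mice, but whether a GFP+ and a GFP- library came from the same mouse is not given in the sources used here. Adam12, whose reporter defined the sort, was higher in GFP+ by 0.75 ± 0.24 on the log2 scale (adjusted p = 0.0266 with DESeq2 and 0.0643 with edgeR). Its normalised counts were 1362 ± 357 in GFP- and 2302 ± 484 in GFP+ (SD, n = 4), so its transcript was also present in the GFP- libraries. Of the 7 fibroblast markers, 5 rose in GFP+, and together the markers took 2.74% to 5.36% of all counts in GFP- and 6.24% to 6.33% in GFP+. All 10 melanocyte markers fell, and their summed share was 0.285% to 0.892% in GFP- and 0.0474% to 0.134% in GFP+. Leukocyte markers took 0.0248% to 0.0910% in GFP- and 0.0150% to 0.0651% in GFP+, and DESeq2 and edgeR called 0 of the 8 they tested, with 0 at an unadjusted p under 0.05, and limma called 0 of 12. Schwann cell markers took 0.00634% to 0.0167% in GFP- and 0.00194% to 0.00459% in GFP+. Mitochondrial transcripts took 4.72% to 6.15% in GFP- and 3.68% to 5.51% in GFP+. The part of these other transcripts in the AP-1 differences was not tested, and in bulk RNA fewer cells of a type and less RNA per cell cannot be told apart.

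Most of the AP-1 genes were higher in the GFP+ cells, by moderate amounts, with none called lower. DESeq2, with an adjusted p under 0.05 over all tested genes, called 7 of the 10 higher in GFP+, namely Fos, Fosb, Fosl1, Jun, Junb, Atf3 and Maff, and 0 lower. Among all 15283 tested genes, 9.42% were called in either direction, 4.66% higher and 4.76% lower. The edgeR quasi-likelihood test, which called 5.11% of all genes (2.83% higher and 2.28% lower), called 4 members higher (Fos, Fosb, Jun and Junb) and 0 lower. At an unadjusted p under 0.05, both tools still had 0 members lower. In 6 members every GFP+ library lay above every GFP- library, a pattern seen in 6.37% of all tested genes, and in no member did every GFP+ library lie below (5.95% of all tested genes). Of the members, 9 had a log2 fold change above 0, as 49.5% of all tested genes did. The log2 fold changes of the 10 members ran from -0.34 to 0.93 with a median of 0.60, against a median of -0.0082 over all tested genes. After scaling the libraries to the 7 fibroblast markers instead of to all genes, a choice made after seeing the data, all 10 members had negative values, and the median of all tested genes moved to -0.97. Batf3, at -1.28, lay below that median, and the other 9 lay above it, from -0.77 to -0.035. The 10 members together took 0.613% to 0.712% of all counts in GFP- and 0.854% to 0.970% in GFP+, so the groups did not overlap in the summed share.

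**Figure D1:**
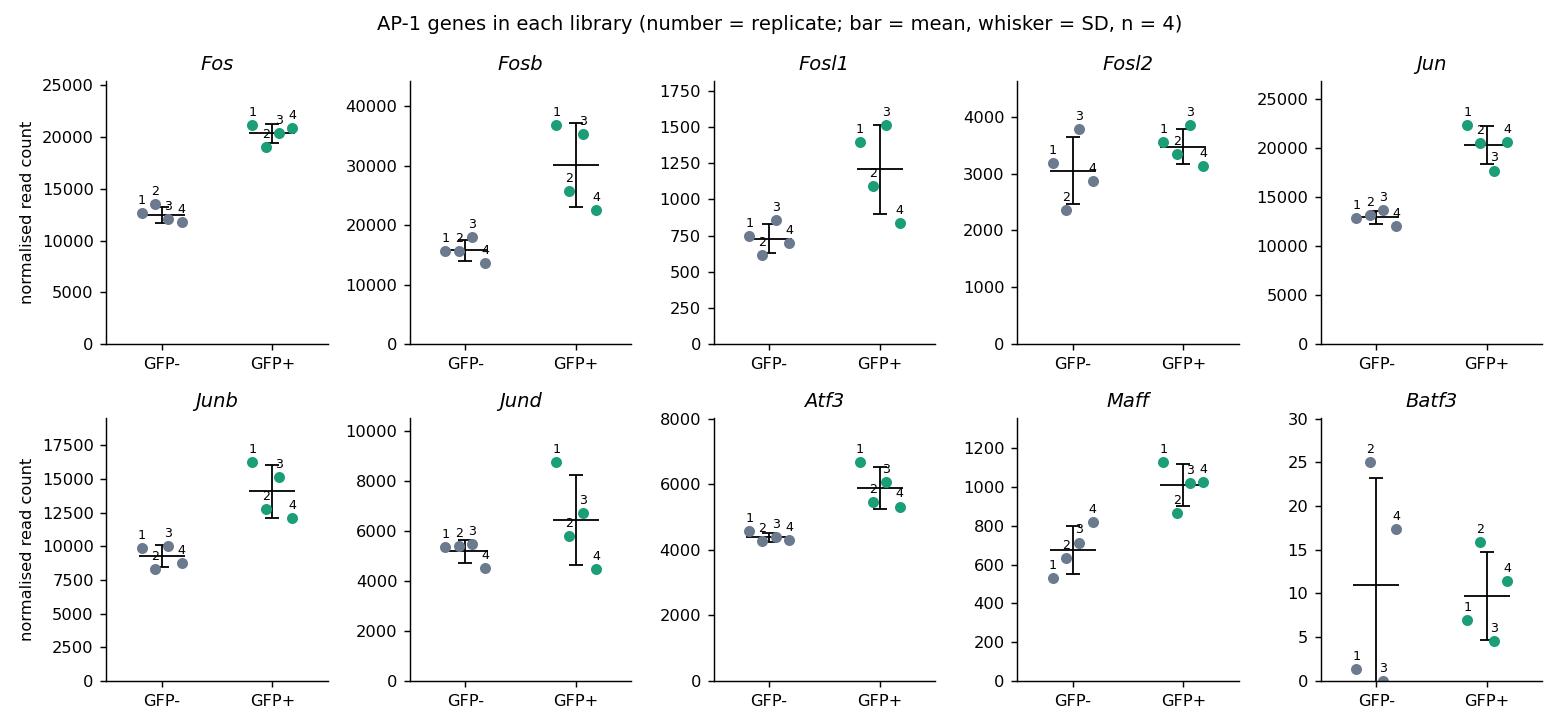
Normalised count of each AP-1 member (vertical axis, counts divided by the library's size factor) in the 4 GFP- and 4 GFP+ libraries, with a point per library and the mean and SD of each group. For Fos, Fosb, Jun, Junb, Atf3 and Maff all GFP+ points lie above all GFP- points, while the groups overlap for Fosl1, Fosl2, Jund and Batf3; the lower SD bar of Batf3 in GFP- is cut at 0.

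The promoters of 4 members are shown as examples: Fos and Jun as the FOS and JUN genes with the highest level per kilobase, Fosb for its fold change and Maff for the full cyclic AMP response element. RefSeq start sites on GRCm38.p6 gave windows for 9 of the 10 members, each covering the 250 bases before a start, and Maff had 3 of them. The Jund window (chr8:70697489-70697738, plus strand) ended upstream of the counted gene, which starts at 70698949. Counts of members below take any window of a gene, whereas the percentages are of single windows. Capitals mark matches on either strand to the full cyclic AMP response element TGACGTCA, its core TGACG (which lies within the full element), the JUN-type element TGACATCA and the TATA box TATAAA. The Fos window (chr12:85473640-85473889, plus strand) has TGACG at 129 and 66 bases and TATAAA at 33 bases before the start.
Fos: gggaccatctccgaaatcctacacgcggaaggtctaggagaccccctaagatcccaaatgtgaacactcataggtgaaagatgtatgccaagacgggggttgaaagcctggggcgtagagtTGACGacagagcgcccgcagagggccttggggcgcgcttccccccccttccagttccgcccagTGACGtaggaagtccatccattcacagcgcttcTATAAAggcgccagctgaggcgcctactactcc
The Fosb window (chr7:19310046-19310295, minus strand) has TGACG at 60 bases before the start.
Fosb: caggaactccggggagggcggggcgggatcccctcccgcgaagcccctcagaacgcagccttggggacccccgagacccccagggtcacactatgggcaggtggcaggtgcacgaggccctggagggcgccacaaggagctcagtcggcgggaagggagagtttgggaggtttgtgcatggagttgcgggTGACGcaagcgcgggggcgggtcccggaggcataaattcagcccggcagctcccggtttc
The Jun window (chr4:95052223-95052472, minus strand) has TGACATCA at 45 bases before the start.
Jun: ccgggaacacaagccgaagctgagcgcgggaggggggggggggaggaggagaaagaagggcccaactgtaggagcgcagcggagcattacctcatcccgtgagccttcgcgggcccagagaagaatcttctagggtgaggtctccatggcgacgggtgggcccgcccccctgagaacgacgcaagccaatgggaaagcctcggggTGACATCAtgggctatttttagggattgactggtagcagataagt
For Maff, the stretch around the match in the window chr15:79347270-79347519 (plus strand) is shown, with TGACGTCA at 29 bases before that start.
Maff: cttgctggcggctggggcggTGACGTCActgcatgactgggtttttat
TGACG was in a window of 5 members (Fos, Fosb, Junb, Atf3 and Maff) and in 17.8% of all 32851 promoter windows. TGACATCA was in windows of 2 members (Jun and Maff) and in 2.93% of all windows, and TGACGTCA was in a window of 1 member and in 1.55% of all. The AP-1 consensus TGACTCA was in no member window and in 4.46% of all windows, and the CArG box, the sequence bound by serum response factor, was in no member window and in 1.47% of all. TATAAA was found for Fos alone, against 12.4% of all windows. These matches are letters in a window and were not measured as bound sites. Only the 250 bases before a start were read, so a motif absent from these windows may still lie outside them.

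Fos, the founding FOS gene and a classical immediate early gene, was among the most abundant transcripts of these cells. Per kilobase of exon, the scale on which levels of different genes are compared here, its mean level was 5319 ± 329.6 in GFP- and 8659 ± 397 in GFP+ (SD, n = 4), rank 30 of the 15283 tested genes. Fos (ENSMUSG00000021250) lies at chr12:85473890-85477273 on the plus strand of GRCm38. Fos normalised counts were 12622, 13545, 12119 and 11758 in GFP- replicates 1 to 4 and 21171, 19049, 20397 and 20843 in GFP+ replicates 1 to 4. The lowest GFP+ library was well above the highest GFP- library, and within each group the libraries were close together, with coefficients of variation of 6.20% and 4.58%. For comparison, the median coefficient of variation over the 3725 tested genes whose normalised counts averaged 500 or more was 18.6% in GFP- and 15.0% in GFP+. Fos was higher in GFP+ by 0.70 ± 0.11 (log2 fold change ± SE), which is 1.63-fold with a 95% interval of 1.4 to 1.89 (adjusted p = 3.75e-08 with DESeq2 and 0.00694 with edgeR).

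Fosb, whose protein also exists as the shortened splice form ΔFosB, had the largest fold change of the 10 members. Its normalised counts were 15729, 15594, 18074 and 13625 in GFP- replicates 1 to 4 and 36844, 25734, 35249 and 22485 in GFP+ replicates 1 to 4. The groups did not overlap, but the GFP+ libraries were spread more widely (coefficient of variation 23.4%, against 11.6% in GFP-), with replicates 1 and 3 high and replicates 2 and 4 lower. Fosb was 0.93 ± 0.20 higher on the log2 scale, or 1.91-fold with a 95% interval of 1.46 to 2.50 (adjusted p = 0.000119 with DESeq2, 0.00942 with edgeR and 0.501 with limma voom). The gene is at chr7:19302696-19310051 on the minus strand, and the gene counts do not separate its splice forms.

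Fosl1 encodes FRA-1, a FOS protein without the transactivating end of FOS that is linked to migration and invasion. Fosl1 normalised counts were 746, 616, 857 and 695 in GFP- and 1397, 1090.3, 1513 and 833 in GFP+, in replicates 1 to 4. The groups overlapped, since GFP+ replicate 4 lay below GFP- replicate 3. Fosl1 differed by 0.74 ± 0.23 on the log2 scale, and the call depended on the test (adjusted p = 0.0191 with DESeq2 and 0.0515 with edgeR). It was also lost when DESeq2 was run without replicate 1 or 3 of GFP+ or without replicate 2 or 4 of GFP-, with adjusted p = 0.0595, 0.118, 0.102 and 0.0720.

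Fosl2 encodes FRA-2, a FOS protein linked to fibrosis of skin and lung. Fosl2 normalised counts were 3179, 2367, 3779.6 and 2873 in GFP- and 3558, 3345, 3857 and 3135 in GFP+, in replicates 1 to 4. The groups overlapped widely. The log2 fold change of 0.20 ± 0.18 did not pass the test (adjusted p = 0.584 with DESeq2 and 0.566 with edgeR), with a 95% interval of -0.15 to 0.54 that takes in no change as well as a moderate rise.

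The FOS family summed per kilobase was 7820 to 8860 in GFP- and 13103 to 15958 in GFP+, and the groups did not overlap. Fos made up 62.5% ± 3.13 of this sum in GFP- and 60.4% ± 5.23 in GFP+, and Fosb 29.6% ± 2.15 and 33.1% ± 4.59 (SD, n = 4). Fosl1 held 4.21% ± 0.554 and 4.08% ± 0.716, so the order of the FOS genes by mean share was the same in both groups. The share of Fosl2 was 2.78% to 4.41% in GFP- and 2.30% to 2.64% in GFP+, with no overlap, and was the only FOS share to separate the groups. These shares are descriptions and were not tested.

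**Figure D2:**
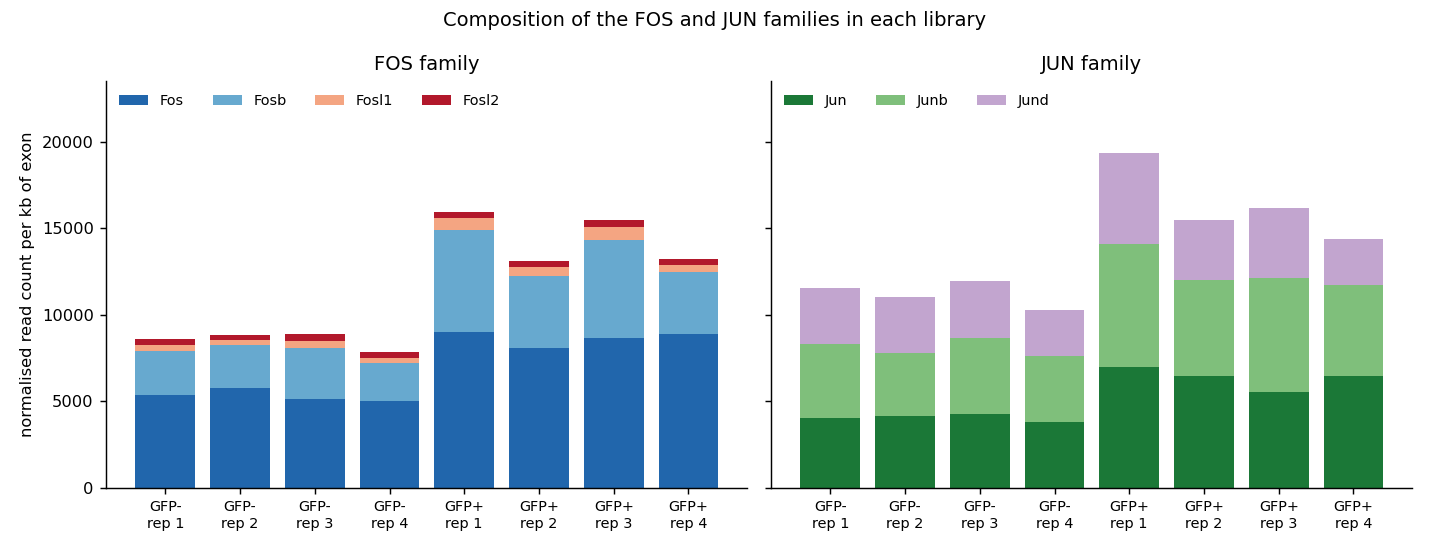
Composition of the FOS and JUN families in each of the 8 libraries, as normalised counts per kilobase of exon stacked by gene. Fos and Fosb fill most of the FOS sum in all 8 libraries, and the JUN sum is divided more evenly among Jun, Junb and Jund.

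Jun encodes c-Jun, the subunit phosphorylated by JNK kinases, and its level per kilobase ranked 42 of 15283. Jun normalised counts were 12856, 13183, 13624 and 12071 in GFP- replicates 1 to 4 and 22323, 20524, 17681 and 20548 in GFP+ replicates 1 to 4. Every GFP+ library lay above every GFP- library. Jun was higher by 0.65 ± 0.13 on the log2 scale, or 1.57-fold with a 95% interval of 1.32 to 1.86 (adjusted p = 1.42e-05 with DESeq2 and 0.0129 with edgeR). Jun is a gene of 1 exon at chr4:95049034-95052222 on the minus strand and overlaps Junos on the opposite strand, whose raw counts were 18 to 650. Reads had been counted by strand.

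Junb encodes a JUN protein that can restrain c-Jun in some settings and that is itself an early response gene. Junb normalised counts were 9867, 8341, 10042 and 8775 in GFP- and 16279, 12769.8, 15132 and 12071 in GFP+, in replicates 1 to 4. The groups did not overlap, although GFP+ replicates 1 and 3 were again above replicates 2 and 4. Junb was higher by 0.60 ± 0.15 on the log2 scale, or 1.52-fold with a 95% interval of 1.24 to 1.87 (adjusted p = 0.00212 with DESeq2 and 0.0284 with edgeR). Junb lies at chr8:84974484-84978718 on the minus strand, and its annotated end overlaps Prdx2 on the plus strand.

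Jund encodes the JUN protein that is typically present in resting cells and least dependent on stimulation. Jund normalised counts were 5360.2, 5405, 5472 and 4500.4 in GFP- and 8778, 5787, 6702 and 4467 in GFP+, in replicates 1 to 4. GFP+ replicates 1, 2 and 3 lay above all GFP- libraries, while GFP+ replicate 4 was the lowest of all 8. The log2 fold change of 0.31 ± 0.22 did not pass the test (adjusted p = 0.438 with DESeq2 and 0.426 with edgeR), and its 95% interval was -0.11 to 0.73.

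The JUN family summed per kilobase was 10297 to 11917 in GFP- and 14368 to 19337 in GFP+, again with no overlap. Jun, Junb and Jund held 36.3%, 35.9% and 27.8% of it on average in GFP- and 39.3%, 37.4% and 23.3% in GFP+, and the ranges of all 3 shares overlapped between the groups. The ratio of the FOS sum to the JUN sum was 0.743 to 0.800 in GFP- and 0.825 to 0.958 in GFP+, so FOS transcripts were the smaller sum in every library but came closer to the JUN sum in GFP+. This ratio was not tested and, being taken within a library, does not depend on the scaling of libraries. It does depend on the exon lengths used, which ran from 1668 bases for Jund to 9680 for Fosl2 as unions of annotated exons.

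Atf3, a stress-induced member of the ATF branch that often acts as a repressor, showed little spread in GFP-. Atf3 normalised counts were 4581, 4275, 4384 and 4309 in GFP- and 6692, 5447, 6072 and 5321 in GFP+, in replicates 1 to 4. The groups did not overlap, and the coefficient of variation was 3.13% in GFP- and 10.7% in GFP+. The GFP+ level was higher by 0.42 ± 0.13 on the log2 scale, or 1.34-fold with a 95% interval of 1.12 to 1.60 (adjusted p = 0.0178 with DESeq2 and 0.0866 with edgeR). Leaving out any 1 of GFP+ replicates 1 and 3 or GFP- replicates 1, 2 and 4 raised the DESeq2 adjusted p to between 0.0541 and 0.103.

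Maff encodes a small MAF protein, which has a zipper but no activating domain and so acts through its partners. Maff normalised counts were 530.5, 636, 714 and 820.5 in GFP- and 1132, 868, 1022 and 1025 in GFP+, in replicates 1 to 4. The groups did not overlap, though the gap between GFP- replicate 4 and GFP+ replicate 2 was small. The log2 fold change was 0.59 ± 0.20, or 1.5-fold with a 95% interval of 1.15 to 1.96 (adjusted p = 0.0337 with DESeq2 and 0.0787 with edgeR). The DESeq2 adjusted p rose to between 0.0962 and 0.138 when GFP+ replicate 1, 3 or 4 or GFP- replicate 1 or 2 was left out.

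Batf3, a BATF factor required for a lineage of dendritic cells and a partner of JUN proteins, was barely detected. Its raw counts were 1, 35, 0 and 33 in GFP- and 5, 38, 6 and 34 in GFP+, in replicates 1 to 4, and the normalised counts were 1.36, 25.1, 0, 17.3 and 6.94, 15.9, 4.61, 11.4. Per kilobase it ranked 12873 of 15283. In both groups replicates 2 and 4 were the higher ones, and they also had more genes with a count than replicates 1 and 3. The log2 fold change of -0.34 ± 1.09 (adjusted p = 0.918 with DESeq2 and 0.920 with edgeR) had a 95% interval of -2.48 to 1.80, so a difference in either direction was not detectable. The 6 dendritic cell markers together took 0.00138% to 0.00476% of counts in GFP- and 0.000684% to 0.00359% in GFP+. DESeq2 called 0 of the 3 it tested and edgeR 0 of 2, with 0 at an unadjusted p under 0.05, and limma called 0.

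**Figure D3:**
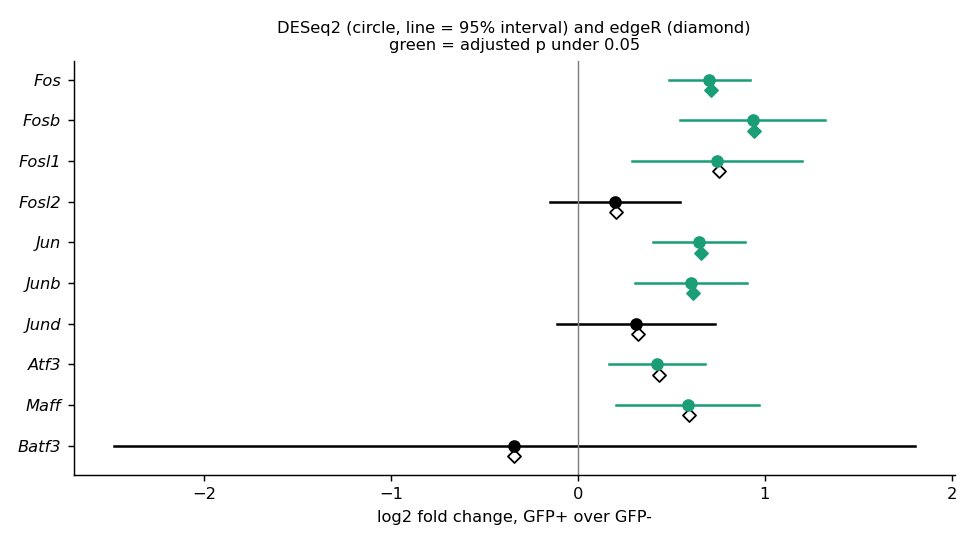
Log2 fold change of GFP+ over GFP- for each AP-1 member (horizontal axis) from DESeq2 (circles, with 95% intervals) and from edgeR (diamonds). The DESeq2 intervals lie above 0 for all members but Fosl2, Jund and Batf3, both tests called Fos, Fosb, Jun and Junb, and the interval of Batf3 spans -2.48 to 1.80; after scaling to the fibroblast markers the values of all 10 were negative.

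Of the 712 genes called higher by DESeq2, 406 had a larger log2 fold change than Fosb and 558 a larger one than Fos. The AP-1 transcripts were abundant rather than far apart: 6 members (Fos, Jun, Junb, Fosb, Jund and Atf3) were within the first 117 of the 15283 tested genes per kilobase, whereas Fosl1, Fosl2 and Maff ranked 696, 1009 and 1046.

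Fos and Jun had closely similar profiles over the 8 libraries. On log2(normalised count + 1), centred on each gene's own mean, the root mean square difference between them was 0.106, and among 8811 genes averaging 100 or more normalised counts Fos was the nearest gene to Jun and Jun the sixth nearest to Fos. The 5 genes nearest to Fos were Ctsl (0.0814), Gsn (0.0821), Adamts5 (0.0857), Efemp1 (0.0981) and Cmpk1 (0.0992). After Fos, the genes nearest to Jun were Dnajb1 (0.114), Phip (0.117), Gsn (0.118) and Psap (0.125). Junb, Atf3 and Maff ranked 85, 105 and 267 from Fos, while Fosb ranked 502, Fosl1 863, Jund 1400 and Fosl2 1538. These distances describe 8 libraries that share a sort and a difference between groups, and carry no test.

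Beyond the 10 members, 12 other genes of AP-1 type (further BATF, JDP, ATF and MAF genes) were read from the same fit. Of the 10 tested, DESeq2 called 2 higher and 0 lower, where 4.66% and 4.76% of all tested genes were. Those 2 were Mafk, another small MAF (log2 fold change 0.80 ± 0.25, adjusted p = 0.0219 with DESeq2 and 0.0582 with edgeR), and Maf, a large MAF with its own activating domain (0.44 ± 0.15, adjusted p = 0.0383 with DESeq2 and 0.117 with edgeR). Neither was called by edgeR, which had 2 genes of this list higher and 2 lower at an unadjusted p under 0.05, and the list's median log2 fold change was 0.19. Among 16 CREB, C/EBP and stress-response zipper genes, with a median of 0.16, 1 rose and 1 fell in DESeq2, near the 4.66% and 4.76% of all tested genes, so the counts are no result about this list. Cebpb, a factor of inflammatory gene expression, was higher by 0.62 ± 0.17 (adjusted p = 0.00534 with DESeq2 and 0.0333 with edgeR). Ddit3, the CHOP factor of the unfolded protein response, was lower (-1.56 ± 0.44, adjusted p = 0.00757 with DESeq2 and 0.0556 with edgeR).

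Kinases and factors that act before AP-1 were read in the same way. Of 25 tested genes for MAP kinases, their activating kinases, serum response factor and its partners, DESeq2 and edgeR called 0 in either direction and limma voom called 1 higher. At an unadjusted p under 0.05, DESeq2 and edgeR each had 1 higher and 0 lower, and the median log2 fold change was 0.027. Over all tested genes, DESeq2 called 9.42% and edgeR 5.11% in either direction. Counts this low among 25 genes are no result about this list. These kinases are regulated largely by phosphorylation, which transcript counts do not measure.

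Of 19 tested textbook AP-1 target genes, DESeq2 called 4 higher and 1 lower, where 4.66% and 4.76% of all tested genes were. The count of lower genes is near that share, and the median log2 fold change of the list was 0.47. The list was written with earlier results of these data known. Mmp3, Il6 and Lox had already been reported by the paper as upregulated in these ADAM12+ cells. The target counts were 2 higher without GFP+ replicate 3, 3 lower without GFP+ replicate 4 and 2 lower without GFP- replicate 3. Mmp3 (stromelysin-1, a matrix protease) had normalised counts of 1858 ± 367 in GFP- and 7087 ± 413 in GFP+ (SD, n = 4), a log2 fold change of 1.95 ± 0.17 (adjusted p = 1.42e-26 with DESeq2 and 0.000134 with edgeR). Il6, an inflammatory cytokine, was higher by 1.06 ± 0.18 (adjusted p = 2.20e-07 with DESeq2 and 0.00231 with edgeR). Lox, which crosslinks collagen, was higher by 0.95 ± 0.27 (adjusted p = 0.00858 with DESeq2 and 0.0398 with edgeR). Mmp9, the gelatinase B gene, went the other way, from 265 ± 96.8 in GFP- to 48.8 ± 53.7 in GFP+ (log2 fold change -2.47 ± 0.64, adjusted p = 0.00284 with DESeq2 and 0.0476 with edgeR).

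Other early response genes, which are switched on by the same kinds of signal as Fos, were mostly higher. Of 25 tested, 14 rose and 0 fell in DESeq2, with 18 higher and 1 lower at an unadjusted p under 0.05, and edgeR called 9 higher and 0 lower. Over all tested genes, DESeq2 called 4.66% higher and 4.76% lower, and edgeR 2.83% and 2.28%. The median log2 fold change of the list was 0.68, beside 0.60 for the 10 AP-1 members. Ctgf, Gadd45b and Gadd45g of this list had already been reported by the paper as upregulated in these cells. Ctgf (a matricellular protein gene) was higher by 1.76 ± 0.35 and Egr2 (a zinc finger factor) by 1.02 ± 0.27, with adjusted p = 2.11e-05 and 0.00337 in DESeq2. Gadd45g (a growth arrest gene) was higher by 0.93 ± 0.21 and Zfp36 (which destabilises cytokine mRNAs) by 0.87 ± 0.20, with adjusted p = 0.000455 and 0.000367 in DESeq2. The early response list count fell to 7, 8 and 9 without GFP+ replicate 1, GFP+ replicate 3 and GFP- replicate 2.

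Heat shock chaperone genes, read as a second stress-responsive list, had 3 of 15 called higher and 1 lower by DESeq2, where 4.66% and 4.76% of all tested genes were, and a median log2 fold change of 0.26. The count of lower genes is near that share. Hspb8 (0.72 ± 0.18, adjusted p = 0.00186 in DESeq2 and 0.0230 in edgeR) and Dnajb1 (0.68 ± 0.18, adjusted p = 0.00440 in DESeq2 and 0.0369 in edgeR) were higher. Bag3 was called in DESeq2 but not in edgeR (0.49 ± 0.17, adjusted p = 0.0441 and 0.0914). These genes serve protein quality control in the cytosol. Hspd1, the mitochondrial chaperonin, was lower (-0.66 ± 0.19, adjusted p = 0.0106 in DESeq2 and 0.0563 in edgeR).

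**Figure D4:**
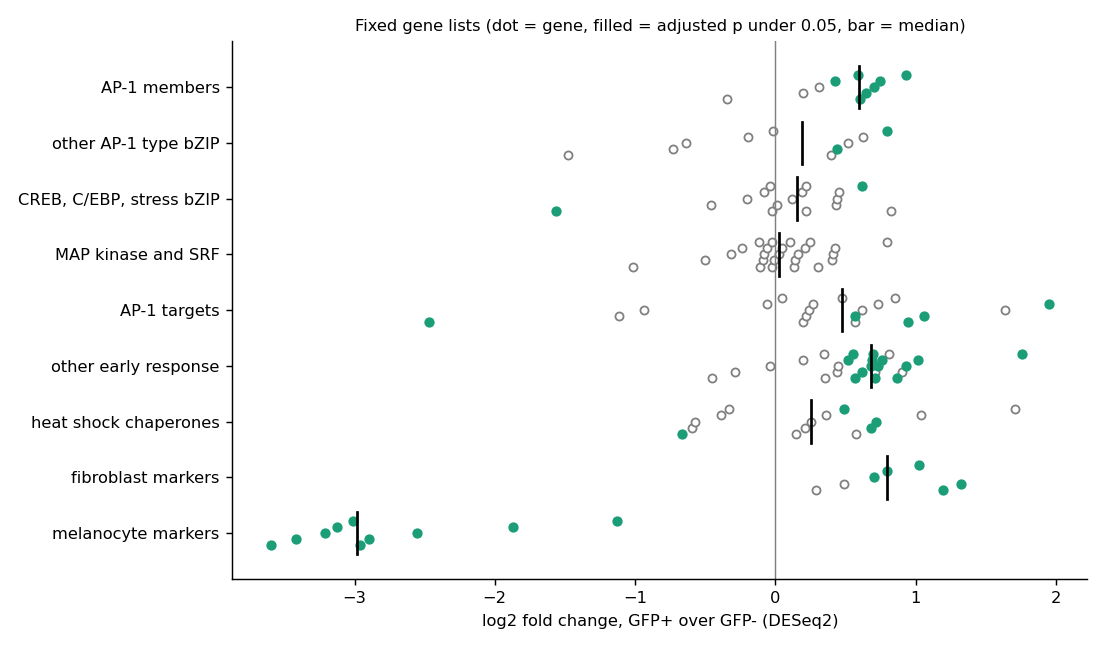
Log2 fold change of GFP+ over GFP- (DESeq2) for each tested gene of the AP-1 members and of the related gene lists, with a point per gene, filled where the adjusted p was under 0.05, and the median of each list. The early response list (median 0.68) and the AP-1 members (median 0.60) sit to the right of the upstream kinase list (median 0.027); scaling to the fibroblast markers moved the median of all genes to -0.97.

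The calls for Fos, Jun and Junb were the most stable. They were kept in each refit other than the fibroblast scaling, and the log2 fold change when 1 library was left out stayed at 0.67 to 0.74 for Fos, 0.61 to 0.71 for Jun and 0.54 to 0.67 for Junb. Fosb ran from 0.84 to 1.05 and was called in each of these leave-one-out fits. The count of members called higher was 7 without the shallowest library, GFP- replicate 3, and 5 with all libraries thinned to its total. It was 4 without GFP+ replicate 1, without GFP+ replicate 3 or without GFP- replicate 2.

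**Figure D5:**
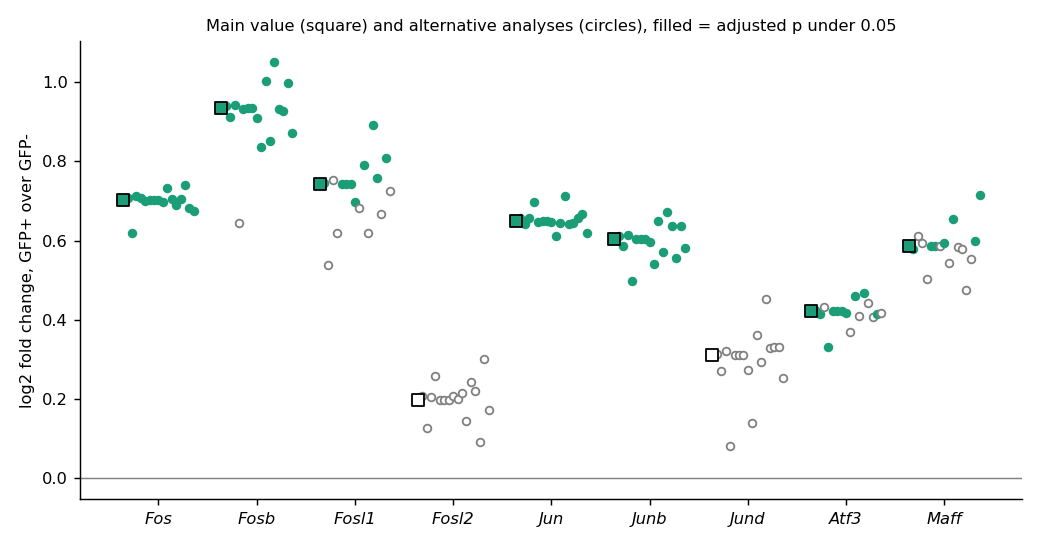
Log2 fold change of 9 AP-1 members (Batf3 is left out) under the main fit and its alternatives, with a point per setting, filled where the member was called. Points of Fos, Jun and Junb are filled throughout while those of Fosl1, Atf3 and Maff are not, and the fibroblast marker scaling, under which all 9 values are negative, is not drawn.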

How the data were processed

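Total RNA of sorted cells had been sequenced from libraries made with a stranded kit for small inputs (SMARTer Pico) on a NextSeq instrument. Per the methods and the submitters' processing notes, the authors trimmed adapters with cutadapt 3.4, mapped to GRCm38 with STAR 2.7.3a and assigned reads by strand to Ensembl genes with featureCounts 2.0.1. The authors deposited raw counts per gene and library, from which all values here were computed, without molecular identifiers. They also deposited a normalised score, the count divided by the DESeq2 size factor and rounded, which was used only to check the size factors. Reads shared by paralogs can be lost or split in such counting. The deposited fold changes, p-values, adjusted p-values and dispersions of the authors' comparison were not used. Per-sample columns left unused: 0.

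Libraries were grouped by the reporter state in their labels, 4 against 4. DESeq2 1.42.0 in R 4.3.3 was fitted to 29043 genes with a count. The settings were a Wald test, group only, independent filtering and Benjamini-Hochberg adjustment over all 15283 genes tested, with a threshold of 0.05. The study's methods name an earlier DESeq2 version with the same filtering, adjustment and threshold, and do not list the model's terms. DESeq2 is therefore the main test here, and edgeR 4.0.16 (quasi-likelihood, 14323 genes) stands beside it. Normalised counts are raw counts over the size factor of their library. Per kilobase values divide these by the union of exons in GENCODE M21, where 53706 genes and all 10 members were found. Errors are SD or SE, and intervals are 95% intervals of the Wald fit. As a check, counts were simulated for 29043 genes, with 200 changed genes to be found. DESeq2 made 54 false calls and found 121 of the changed genes, edgeR 3 and 91, and limma voom 18 and 89. False calls were thus most numerous with the main test, and genes called by DESeq2 but not by edgeR are less certain.

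The members and lists were picked by name and the tests fixed with earlier results of these data known. Genes named were the 10 members, up to 4 called genes per list with the largest absolute log2 fold change and a mean normalised count of at least 100, the 5 genes nearest to Fos and to Jun, and Adam12. Junos and Prdx2 were named for their position. Lists of endothelial, pericyte, keratinocyte and Schwann cell markers were also read: DESeq2 called 0 of 5, 1 of 6 (lower), 0 of 1 and 3 of 4 (lower) tested genes, with 2, 1, 0 and 3 at an unadjusted p under 0.05. Alternatives were edgeR, limma voom 3.58.1, TMM factors, a mean of at least 10 raw counts, no independent filtering, no filter on Cook's distance, an adjusted p under 0.01, the replicate number as a block and each library left out. Promoters and motifs were read from RefSeq windows on GRCm38.p6.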

Additional observations from a re-analysis of the deposited data

Results flagged for a closer look

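Among the 40 groups of 4 libraries examined for a value far from the rest, 3 held one, and chance alone gives about 1 in 20. Jund in GFP- replicate 4 was 4500.4 normalised counts, below the other GFP- libraries at 5360.2 to 5472. The share of Junb in the JUN family was 33.0% in GFP- replicate 2, where the other GFP- libraries had 36.6% to 37.2%. The same share was 40.7% in GFP+ replicate 3, where the other GFP+ libraries had 35.9% to 36.6%.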

How the results depend on the processing

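Counts of calls depended on the test and the threshold. DESeq2 called 712 genes higher and 727 lower. The counts were 405 and 327 with edgeR, 458 and 480 with limma voom, 419 and 425 at an adjusted p under 0.01, and 418 and 381 with all libraries thinned to the shallowest, a setting chosen after seeing the data. Without 1 library they ran from 460 to 937 higher and from 469 to 900 lower, with 460 without GFP+ replicate 3. Members called higher numbered 7, with 4 in edgeR, in limma and at 0.01, and 4 to 7 without 1 library. Log2 fold changes that kept their direction but lost their call were, in limma, Fosb 0.64, Fosl1 0.62 and Maff 0.50, in edgeR, Fosl1 0.75, Atf3 0.43 and Maff 0.60, after thinning, Fosl1 0.54 and Maff 0.61, and without independent filtering, Maff 0.59. Without 1 library, Fosl1 ran from 0.62 to 0.89, Atf3 from 0.37 to 0.47 and Maff from 0.48 to 0.72. Batf3 changed sign in limma (0.068), after thinning (1.60) and without GFP- replicate 2 (0.36), with a range of -0.76 to 0.36 without 1 library. The cause of these changes was not tested.

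Size factors from the 7 fibroblast markers, also chosen after seeing the data, moved the median of all tested genes to -0.97. The calls became 86 higher and 7499 lower, and members called became 0 higher and 3 lower. Fos was -0.26, Fosb -0.035, Fosl1 -0.25, Fosl2 -0.77, Jun -0.31, Junb -0.37, Jund -0.66, Atf3 -0.55 and Maff -0.43. List counts higher and lower were 0 and 5 for other AP-1 type genes, 0 and 12 for CREB and C/EBP genes, 1 and 7 for targets, 0 and 7 for early response genes, 0 and 8 for heat shock genes, and 17 lower for upstream genes.

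Other list counts moved as follows, higher before lower. Other AP-1 type genes had 0 higher in edgeR and at 0.01, 1 higher in limma and without independent filtering, and 1 and 2 after thinning. Early response genes had 9 higher in edgeR, 8 in limma and 7 at 0.01. CREB and C/EBP genes had 3 higher with TMM factors, and 0 lower in edgeR and after thinning. Upstream genes had 1 higher in limma. Heat shock genes had 5 and 3 in limma, 1 and 2 after thinning, 2 lower with a mean of at least 10 counts, and 0 lower in edgeR and at 0.01. Without 1 library, the ranges were 0 to 2 higher and 0 to 1 lower for other AP-1 type genes, 0 to 2 higher and 0 to 1 lower for CREB and C/EBP genes, 0 to 1 higher for upstream genes, 2 to 5 higher and 1 to 3 lower for targets, 7 to 15 higher for early response genes, and 2 to 4 higher and 0 to 3 lower for heat shock genes.

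Replicate numbers were not used as pairs in the main fit. Same-numbered libraries had correlations of deviations from their group means of 0.05, -0.16, -0.12 and 0.26 over 8812 genes. Not every library correlated best with its own number. With 4 libraries per group, these values cannot show whether libraries shared a mouse. With the replicate block, 755 genes were higher and 737 lower, members higher stayed at 7, Batf3 was 0.32, other AP-1 type genes had 1 higher and 2 lower, CREB and C/EBP genes 2 higher and heat shock genes 2 lower. Batf3 had 0 to 38 raw counts.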

Other observations

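In GFP- libraries, 5 of the 10 members (Fosb, Fosl1, Fosl2, Junb and Atf3) were higher in both replicates 1 and 3 than in replicates 2 and 4, and in GFP+ libraries the same 5 and Jund were. All tested genes showed this order in 15.7% of cases in GFP- and 18.5% in GFP+. It was noticed after the values were seen, and the labels give no batch. Replicates 1 and 3 had the lower total counts in each group (7868787 and 883144 in GFP-, 8776925 and 14857197 in GFP+), and the part of depth in this order was not tested.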
